A study of Caenorhabditis elegans with 4 samples.

Results

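The gene fah-1 encodes fumarylacetoacetate hydrolase, the enzyme of the last step of tyrosine breakdown, and it is 1 of the 302 gene names held by the 4 deposited tables. It was chosen by its name, with its levels and folds in these tables already in view, so its values are given as a description and carry no test of their own. Whole young adults of Caenorhabditis elegans were profiled by RNA-seq in 4 groups with 1 library each. These are VZ1 kept in 10 mM sodium arsenite for 5 h, VZ1 left unstressed, N2 kept in arsenite for the same time, and N2 left unstressed, all grown on the bacterial strain OP50. Sodium arsenite is a toxic salt that causes oxidative stress, N2 is the standard wild-type strain, and VZ1 is known as a strain with a deletion in the thioredoxin gene trx-1, which is active in a pair of sensory neurons. The labels give the strain names and the treatment but no allele and no number of animals.

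Tyrosine is broken down in steps to fumarate, which enters the citric acid cycle, and acetoacetate, a ketone body. Phenylalanine hydroxylase (pah-1) makes tyrosine from phenylalanine, and tyrosine aminotransferase (tatn-1) removes the amino group. Hydroxyphenylpyruvate dioxygenase (hpd-1) makes homogentisate, and homogentisate dioxygenase (hgo-1) opens its ring. Maleylacetoacetate isomerase (gst-42, a zeta-class glutathione S-transferase) then makes the substrate that fumarylacetoacetate hydrolase cleaves. That substrate is a reactive compound. In humans, inherited loss of the enzyme causes a form of tyrosinaemia with liver and kidney damage, and in C. elegans loss of fah-1 is known to harm growth and the intestine.

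The fah-1 entry was among the highest of all listed under arsenite in both strains. It stood at 2771 FPKM in stressed VZ1, against 264 FPKM in unstressed VZ1, and at 2482 FPKM in stressed N2, against 203 FPKM in unstressed N2. FPKM is the number of sequenced fragments scaled to exon length and to the fragments mapped in the library. The stressed library was the higher in each strain, by 10.5-fold (log2 3.39) in VZ1 and 12.2-fold (log2 3.61) in N2. With 1 library per group the folds have no replicate check, and the depth behind them is unknown. In whole animals, a difference in the number of cells that use a gene cannot be told apart from a difference in RNA per cell.

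The authors' deposited tables mark fah-1 as significant in both stress comparisons, with q-values of 0.0111 in VZ1 and 0.00735 in N2. Each is the smallest q its table holds, shared by the 65 of 106 entries in VZ1 and the 98 of 151 entries in N2 that have the smallest p-value listed, 5e-05, so it does not set fah-1 apart from these. The authors' test compares 2 libraries and not 2 conditions. The tables hold called genes only: 0.61% of 14420 genes tested were listed as higher in stressed VZ1 and 0.799% of 14397 as higher in stressed N2.

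The FPKM belongs to a merged locus and not to fah-1 alone. Both stress tables name K10C2.3 beside fah-1 at this entry, which covers chromosome X, 6444131 to 6449636, in VZ1 and 6444140 to 6449216 in N2 (build ce10). The widths are 5506 bp and 5077 bp. K10C2.3 is now named asp-14, an aspartyl protease gene, in the RefSeq gene table of WBcel235, where it is the next gene to fah-1 on one side and grl-6 is the next on the other. All 3 are protein-coding genes on the minus strand. How much of the value came from fah-1 and how much from K10C2.3 cannot be told apart in these tables, and all values below are those of the merged locus. Nearly all of the extra length in VZ1 lies at the end of the locus that faces grl-6, and its effect on the FPKM was not tested.

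**Figure D1:**
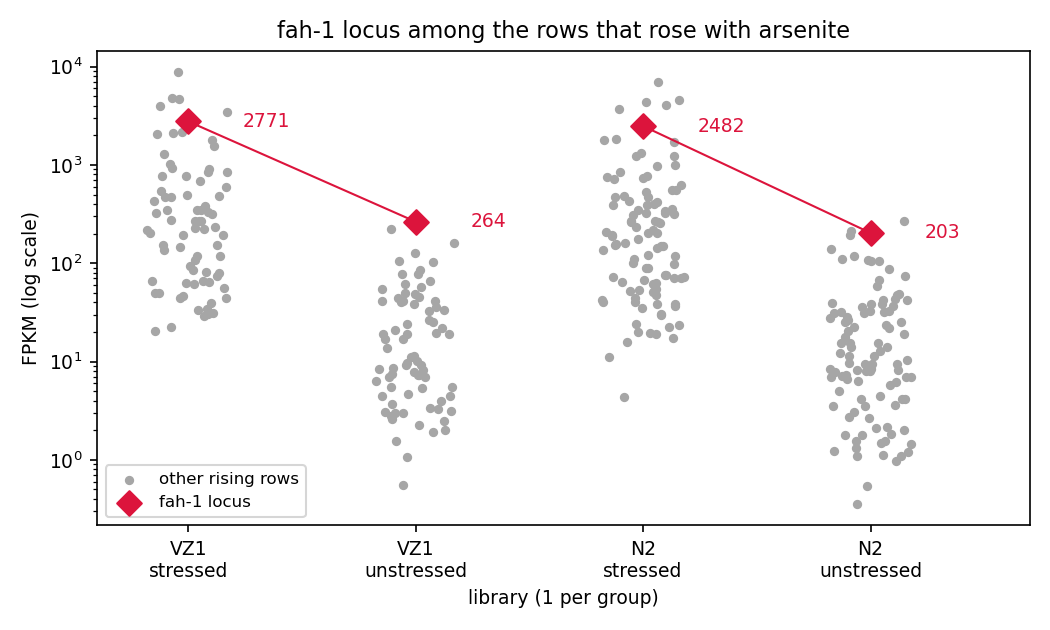
FPKM on a log scale in each of the 4 libraries, for the fah-1 locus (red diamonds, joined within a strain) and for the other entries that rose with arsenite and are above 0 in both libraries (grey points, spread sideways at random). The fah-1 locus stands at 2771 and 264 FPKM in stressed and unstressed VZ1 and at 2482 and 203 FPKM in stressed and unstressed N2, near the top of each column.

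The fah-1 locus combined a high level without stress with a fold of middle size. Without arsenite it had the highest FPKM of the 88 entries that rose in VZ1 and the third highest of the 115 that rose in N2. Only gst-1 (270 FPKM) and gst-13 (211 FPKM), both glutathione S-transferase genes, stood above it among those that rose in unstressed N2. Its unstressed level was 31.2 times the median of the rising entries in VZ1 and 24.5 times that in N2, and its stressed level was 14.4 and 18.1 times the median in VZ1 and N2. The medians were 192 FPKM in stressed and 8.48 FPKM in unstressed VZ1, and 137 FPKM in stressed and 8.30 FPKM in unstressed N2.

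By fold, fah-1 was near the middle of the rising entries in N2 and below the middle in VZ1. It ranked 50 of the 76 rising entries above 0 in both VZ1 libraries, whose median log2 fold was 3.84, and 50 of the 101 such entries in N2, whose median was 3.60. Entries that fell all rank below those that rose, so its rank among all entries above 0 was 50 of 87 in VZ1 and 50 of 127 in N2. Next above it in VZ1 were C50F7.5 (log2 3.43), F20G2.1 (3.42) and the locus of the chemoreceptor genes sri-36 and sri-74 with F33H12.7 (3.42), and next below were C02D5.4 (3.32), the glutathione S-transferase gene gst-20 (3.27) and H20E11.3 (3.25). In N2 the next above were C08E8.10 (log2 3.64), Y58A7A.5 (3.64) and the locus of the F-box gene fbxa-127 with srz-99 and srz-100 (3.61), and the next below were gst-39 (3.60), C09B8.4 (3.55) and F55G1.9 (3.54).

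**Figure D2:**
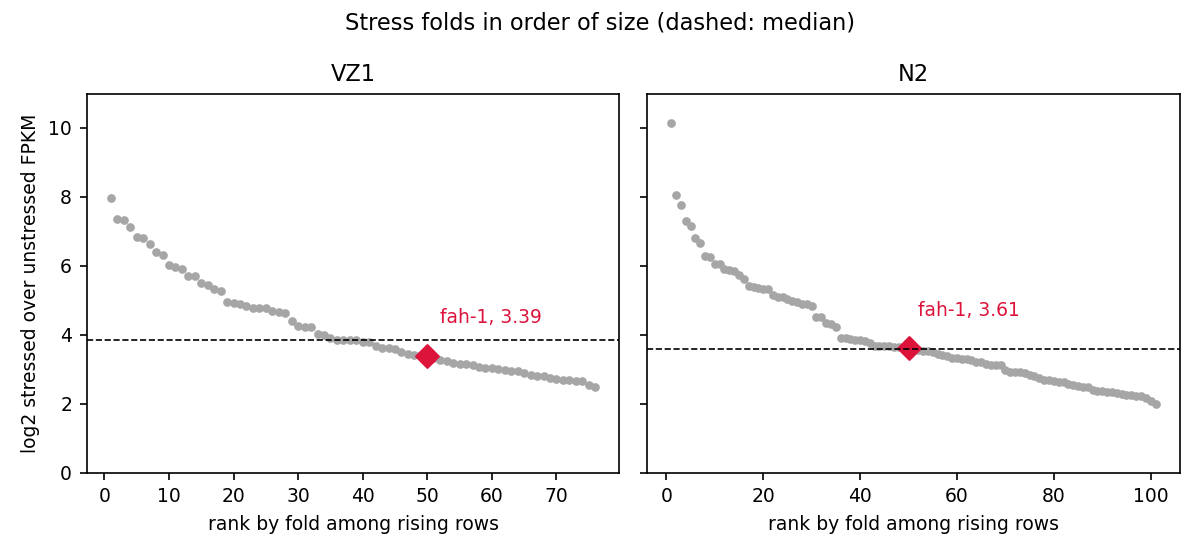
Log2 of stressed over unstressed FPKM for the rising entries above 0 in both libraries, in order of size, in VZ1 (left) and N2 (right), with their median as a dashed line. The fah-1 locus (red diamond) is at place 50 in each strain, at 3.39 in VZ1, below the median of 3.84, and at 3.61 in N2, next to the median of 3.60.

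By level under stress, fah-1 ranked sixth in both tables, and the same 5 glutathione S-transferase loci stood above it in each. These were gst-4, the usual reporter gene of SKN-1 activity, and gst-1, gst-5, gst-7 and gst-38. Next above fah-1 was gst-38, at 3440 FPKM in stressed VZ1 and 3730 FPKM in stressed N2, and then gst-7 in VZ1 (3931 FPKM) and gst-1 in N2 (4048 FPKM). The next lower entries were F55G11.2 (2170 FPKM) and the globin gene glb-1 (2121 FPKM) in stressed VZ1, and gst-13 (1829 FPKM) and F55G11.2 (1797 FPKM) in stressed N2. In both strains, then, fah-1 had the highest stressed level of any entry of its stress table that holds no gst gene.

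Measured as a difference in FPKM, the rise of fah-1 was again the sixth in both strains, after the same 5 gst loci. The gain of stressed over unstressed animals was 2507 FPKM in VZ1 and 2279 FPKM in N2. For gst-4 it was 8667 FPKM in VZ1 and 6919 FPKM in N2, and for F55G11.2, the next after fah-1, it was 2151 FPKM in VZ1 and 1780 FPKM in N2.

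**Figure D3:**
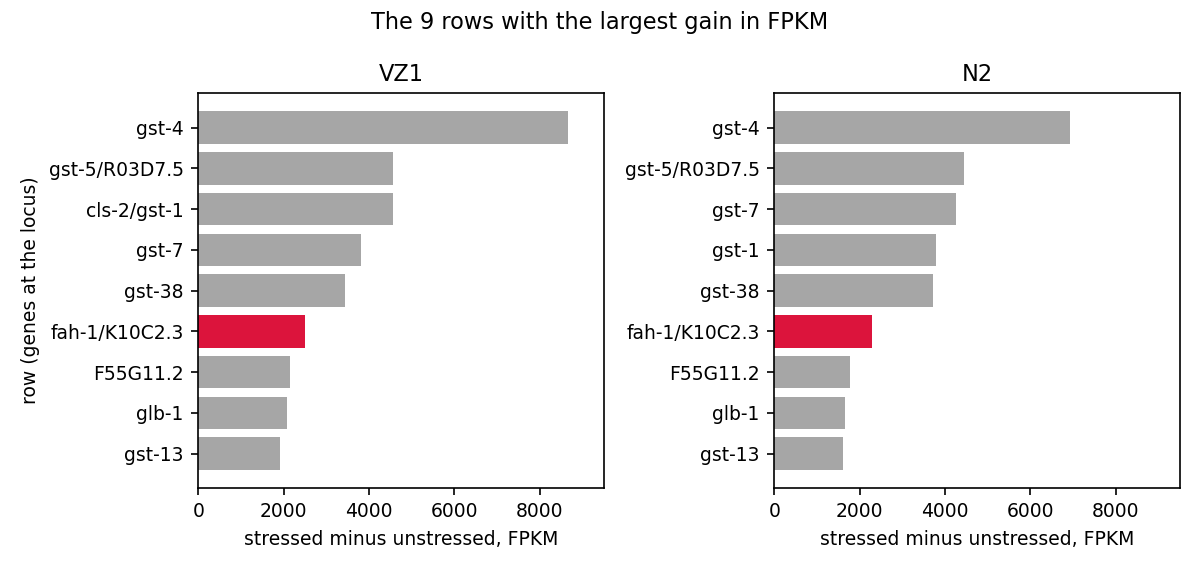
Difference between stressed and unstressed FPKM for the 9 entries with the largest gain in VZ1 (left) and N2 (right), as bars from 0, with the genes that share the locus named together. The fah-1 locus (red) is the sixth bar in both strains, at 2507 FPKM in VZ1 and 2279 FPKM in N2.

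A high level before stress was uncommon among the genes that rose, and how common it is among all genes tested is not known. Entries of at least 100 FPKM in unstressed animals, a limit chosen after the values were seen, numbered 6 of 88 in VZ1 and 10 of 115 in N2. In VZ1 they were fah-1 and the gst loci gst-1, gst-5, gst-6, gst-7 and gst-13, of which gst-6 alone had a smaller fold (log2 2.88) than fah-1. In N2 they were the same 6 with gst-4, the lysozyme gene lys-2, C18H9.6 and F35E12.6, and fah-1 had the fifth largest fold, after gst-4 (log2 6.06), gst-5 (5.43), gst-7 (4.98) and gst-1 (3.90). The gst-1 locus is merged with cls-2 in VZ1 and stands alone in N2, and the gst-5 locus is merged with R03D7.5 in both, so values given for gst-5 are those of the merged locus.

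The rise of fah-1 was smaller in VZ1 than in N2 on the log2 scale. Of the 74 entries listed in both stress tables, 67 rose in both, and 73 are above 0 in every library. For fah-1 the fold in VZ1 minus that in N2, on the log2 scale, was −0.22, against a median of 0.18 over the 73 (quartiles −0.29 and 0.50). With that median taken off, the difference was −0.41. As measured, the difference for fah-1 lay between the quartiles of all 73, 23rd from the lowest, and 29 of the 73 had a lower log2 fold in VZ1 than in N2. Of the 73, 66 rose in both strains and the others fell in both. For an entry that fell, a negative difference is a larger fall in VZ1, and most of these entries lie below fah-1. Among the rising entries alone fah-1 therefore stands nearer the low end, and their quartiles were not worked out. Whether the strains' folds differ could not be tested with 1 library per group.

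Neither table that compares the strains lists fah-1, so its VZ1 and N2 levels come from the separately normalised stress tables. Set side by side, they give a ratio of VZ1 to N2 of 1.12 with stress and 1.30 without stress. The locus also differs in width, at 5506 bp in VZ1 and 5077 bp in N2, and the effect on these ratios was not tested. Of the 73 entries above 0 in every library, 45 have the same locus in both stress comparisons. The 73 entries had median ratios of 1.18 with stress and 1.06 without, among which fah-1 ranked 45th and 23rd from the top. Scaled by these medians, the ratio with stress was below 1 (log2 −0.082, against 0.16 as measured), so its direction is not settled. Under stress, the listed log2 ratio of smallest size, whatever its sign, was −1.67 (dpy-4, 491 FPKM in VZ1 and 1564 FPKM in N2). Without stress it was −1.98 (D1086.10, 147 FPKM in VZ1 and 582 FPKM in N2). Both are far larger in size than either value for fah-1. Absence from these tables, which list 0.508% of 14358 genes tested under stress and 0.437% of 14419 without, does not show that the strains had equal levels.

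The entries with stress folds most like those of fah-1, by Euclidean distance over the log2 folds of the 2 strains, were T05F1.9, the infection response gene irg-3, F55G1.9, the sri-36 locus and C02D5.4, at distances of 0.22 to 0.30. F55G1.9 is now named pycr-4 in the RefSeq gene table, for pyrroline carboxylate reductase, an enzyme of proline synthesis. Its log2 folds were 3.62 in VZ1 and 3.54 in N2, and those of irg-3 were 3.18 and 3.52. All 5 stood lower than fah-1 in stressed animals, between 31.4 FPKM (T05F1.9) and 849 FPKM (C02D5.4) in VZ1 and between 23.4 FPKM (T05F1.9) and 740 FPKM (C02D5.4) in N2. By distance over the log2 FPKM of all 4 libraries, the nearest were gst loci only, gst-13 (0.95), gst-1 (1.16), gst-7 (1.54), gst-5 (2.02) and gst-4 (3.01), and none was shared with the first 5. The nearest, gst-13, had 2063 FPKM in stressed and 160 FPKM in unstressed VZ1, and 1829 FPKM in stressed and 211 FPKM in unstressed N2.

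**Figure D4:**
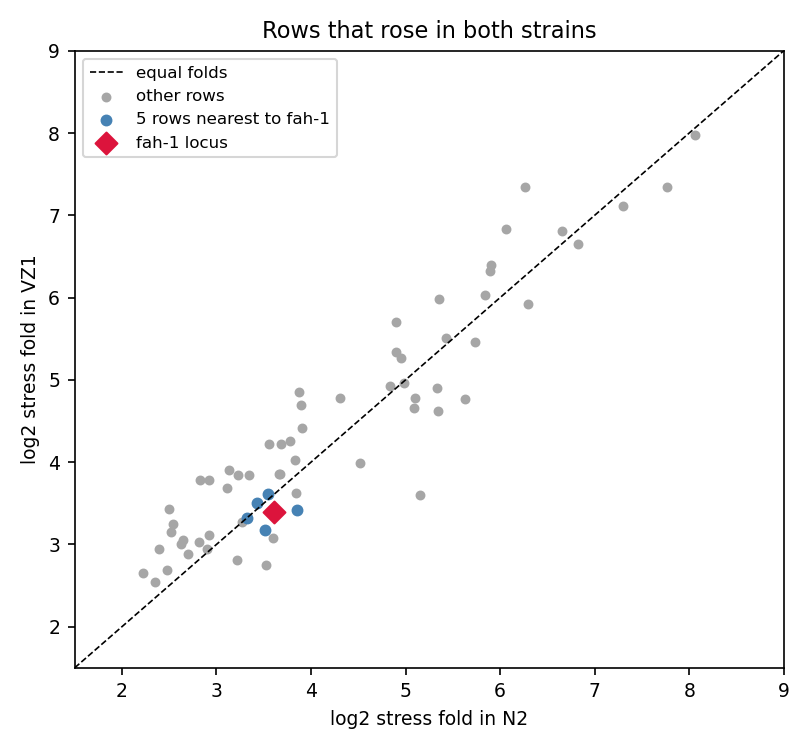
Log2 stress fold in VZ1 (vertical) against that in N2 (horizontal) for the 66 entries that rose in both strains with values above 0 in all 4 libraries, with the line of equal folds dashed. The fah-1 locus (red diamond) lies at 3.39 in VZ1 and 3.61 in N2, just below the line, among the 5 entries with the most similar folds (blue).

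Of the 6 genes from phenylalanine to fumarate and acetoacetate, fah-1 was the only one listed in either stress table, where 0.735% of all genes tested were listed in VZ1 and 1.05% in N2. The earlier steps pah-1, tatn-1, hpd-1, hgo-1 and gst-42 were listed in none of the 4 tables, which give no level for them and do not show that they kept their levels. The 7 genes that use tyrosine for amines or make the cofactor of its hydroxylation (cat-2, tdc-1, tbh-1, bas-1, cat-4, pcbd-1 and ptps-1) were not listed either.

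Lists of genes were also made for the breakdown of other amino acids, and the members that the authors listed were lower in stressed animals. Of all genes tested, 0.125% in VZ1 and 0.25% in N2 were listed as lower. The lists are not complete. The gene cbl-1, named for cystathionine beta-lyase, is on none of them and rose in both strains. It stood at 349 FPKM in stressed and 54.1 FPKM in unstressed VZ1 (log2 2.69). In N2 it stood at 328 FPKM in stressed and 58.8 FPKM in unstressed animals (log2 2.48). Of 20 branched-chain genes, acdh-1, an acyl-CoA dehydrogenase gene whose locus is merged with others, stood at 209 FPKM in stressed and 2595 FPKM in unstressed VZ1 (log2 −3.64) and at 430 FPKM in stressed and 3144 FPKM in unstressed N2 (log2 −2.87). Of 14 sulfur amino acid genes, cth-1, a cystathionine gamma-lyase gene, was listed in N2 only, at 20.3 FPKM in stressed and 103 FPKM in unstressed animals (log2 −2.34), and its stress fold in VZ1 is not known. None of 7 tryptophan genes and none of 11 genes for histidine, proline, lysine and glycine was listed in any table. Of the 65 genes in all 6 lists, which leave out cbl-1, 1 was listed as higher in stressed animals. This was fah-1 itself, around which the lists were made. Of all genes tested, 0.61% in VZ1 and 0.799% in N2 were listed as higher, and a count of 1 made up of fah-1 itself is no result about the lists.

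No other listed entry lay within 100 kb of the fah-1 locus in any of the 4 tables. The nearest in both stress tables was C09B8.4, 424 kb away, which also rose, with 315 FPKM in stressed and 16.8 FPKM in unstressed VZ1 and 266 FPKM in stressed and 22.7 FPKM in unstressed N2. Its log2 fold was 4.22 in VZ1 and 3.55 in N2. Besides fah-1, chromosome X held 8 listed entries in the VZ1 stress table and 14 in that of N2.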

How the data were processed

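The series holds 4 RNA-seq libraries of whole worms, 1 per group. TopHat, Bowtie2, Cufflinks and build ce10 were used, per the submitters' processing notes. Their versions and the gene models are not stated in any label or header. The authors deposited 4 tables, laid out as Cuffdiff writes them per the file headers, with FPKM for each library of a pair and a p-value and q-value for the pair. Pairs are of the same strain or the same condition. Every entry is marked significant, so the tables hold called genes only, in 393 entries. How many genes were tested follows from q times rank over p.

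The fah-1 entries were found by the gene name. Folds are log2 of the FPKM ratio with no pseudocount. Entries at 0 in a library have no fold. No test was made across libraries. Locus starts were taken to count from 0, since 14 of 326 single-gene entries then match an annotated gene's width and 0 otherwise, and 1 was added. A library's FPKM at the same locus in different tables differed by a median ratio of 0.99 (4 genes) in stressed N2 and 1.02 (7 genes) in unstressed N2; no gene allowed this for VZ1. Names were matched to the RefSeq table of WBcel235, which held all 65 genes of the pathway lists. The member and the lists were chosen with earlier results of these data known.

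Named genes follow a rule: fah-1 and the gene at its locus, 3 entries on each side by fold and 2 by stressed level, the 5 most alike by each of 2 distances, listed members of the pathway lists, listed entries within 100 kb, and gst-4. Others were named after their values were seen. Python 3.11.15 with pandas 2.3.3 and NumPy 2.4.6 was used, and the rank and distance code was tested on simulated data.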

Additional observations from a re-analysis of the deposited data

How the results depend on the processing

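With 1 library per group, no alternative has an error to be set against. Adding 1 FPKM to each library gave log2 stress folds of 3.38 in VZ1 and 3.60 in N2 and left the difference between the strains' folds at −0.22 and their log2 level ratios at 0.16 with stress and 0.38 without. The fold rank of fah-1 was then 45 of 106 in VZ1 and 47 of 151 in N2, with entries at 0 included. It was 49 of 75 and 47 of 98 among rising entries of at least 1 FPKM in the lower library, and 47 of 82 and 45 of 113 with other merged loci left out. The level rank was then 4 in VZ1 and 5 in N2, and by unstressed level it was 3 in VZ1 and 12 in N2. With the median difference of the entries in both stress tables taken off, the VZ1 minus N2 difference of folds was −0.41. The log2 ratio of VZ1 to N2 scaled by the median was −0.082 with stress, a reversed direction, and 0.30 without. The 2 distances shared 0 of their 5 nearest entries. Current gene names left the counts of both sets of pathway lists as they were. The authors' deposited fold column was not run as an alternative, since it holds error text on some rows. No paired analysis was possible because each group has 1 library. The FPKM carry no depth, so no counting error can be given.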
